A study of Homo sapiens with 6 samples.

Results

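*CD4*, *F13A1*, *ITGB2*, *LAPTM5*, *FYB1* and *ADGRE1* are 6 genes best known from blood and immune cells, and they were picked out of the 1161 genes in the deposited table by name. They were chosen because their direction differed between the dormant population (GFP+CV+) and the proliferating one (GFP+CV-), so every difference between these populations given for them is a description and carries no test. *CD4* and *F13A1* were higher and *ITGB2*, *LAPTM5*, *FYB1* and *ADGRE1* were lower in dormant cells. The cells injected were MDA-MB-231, a human triple negative breast cancer line tagged with green fluorescent protein (GFP). They were labelled with CellVue Claret (CV), a membrane dye that is diluted with each division. The hosts, injected in the internal carotid artery, were female C.B-17 SCID mice aged 6 to 8 weeks. Whether other cells were among those sorted was not tested here. By immunofluorescence, the paper found the sorted cells to carry GFP with or without CV, as gated. Brains were taken at day 28, and the cells that kept the dye (dormant) and those that had lost it (proliferating) were sorted from pools of 10 mice for replicates 1 and 2 and of 9 mice for replicate 3. Each population thus gave 3 libraries, and both libraries of a number are from 1 pool. A SCID host lacks mature T and B cells but keeps microglia, macrophages, granulocytes, mast cells and natural killer cells.

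*CD4* is the co-receptor that binds MHC class II on helper T cells, and in humans monocytes and macrophages carry it too. *ITGB2* encodes the beta chain (CD18) shared by the leukocyte integrins, which hold leukocytes to vessel walls and to other cells, and *FYB1* encodes an adaptor that couples antigen receptor signalling to the activation of these integrins. *LAPTM5* encodes a lysosomal membrane protein of haematopoietic cells that takes part in the turnover of antigen receptors. *ADGRE1* encodes an adhesion G protein-coupled receptor that marks eosinophils in humans and whose mouse counterpart is a classic macrophage marker, and *F13A1* encodes the catalytic A subunit of coagulation factor XIII, a transglutaminase that crosslinks fibrin and is made by macrophages and platelet precursors.

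Summed over the listed genes, a library held between 7978657 and 17928784 estimated counts, and its full depth cannot be read from the table. Markers of the MDA-MB-231 line were at high counts in every library, with summed normalised read counts of 461600 to 527300 in proliferating and 246300 to 323700 in dormant cells for the 6 of 10 markers in the table (*KRT8*, *KRT18*, *CAV1*, *LGALS1*, *S100A4* and *TIMP1*). Of 13 markers shared by most leukocytes, *ARHGDIB* and *RAC2* were in the table, and the defining marker *PTPRC* was not analysed here.

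Windows of 250 bases before the transcription start, from RefSeq on GRCh38.p14, were found for 4 of the 6 genes, and *CD4* and *ITGB2* had no entry. Those of the 3 genes that were lower in dormant cells are shown so that their start regions can be read side by side. Promoters of myeloid genes are known to be driven by factors of the ETS family, such as PU.1, so capitals mark the ETS core GGAA on either strand (TTCC on the other). The windows are chr1:30757775-30758024 for *LAPTM5* (minus strand), chr5:39219564-39219813 for the second of 2 *FYB1* starts (minus strand) and chr19:6887329-6887578 for *ADGRE1* (plus strand), each written from 5′ to 3′.
LAPTM5: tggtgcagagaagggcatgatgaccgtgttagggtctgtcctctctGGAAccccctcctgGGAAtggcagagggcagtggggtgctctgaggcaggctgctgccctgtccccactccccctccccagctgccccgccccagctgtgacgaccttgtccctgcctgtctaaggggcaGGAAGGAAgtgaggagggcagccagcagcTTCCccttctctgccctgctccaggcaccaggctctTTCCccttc
FYB1: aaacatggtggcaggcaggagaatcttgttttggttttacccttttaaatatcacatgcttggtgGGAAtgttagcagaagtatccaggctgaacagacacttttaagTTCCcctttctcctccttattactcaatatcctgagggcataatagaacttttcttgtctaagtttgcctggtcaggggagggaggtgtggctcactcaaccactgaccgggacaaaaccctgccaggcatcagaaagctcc
ADGRE1: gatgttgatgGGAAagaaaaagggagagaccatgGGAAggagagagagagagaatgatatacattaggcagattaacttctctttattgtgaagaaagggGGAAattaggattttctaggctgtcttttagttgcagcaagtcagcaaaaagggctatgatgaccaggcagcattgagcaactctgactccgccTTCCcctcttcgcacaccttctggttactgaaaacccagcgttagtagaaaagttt
The *LAPTM5* window held 6 ETS cores, the *ADGRE1* window 4 and the *FYB1* window 2, and the window of *F13A1*, which was higher in dormant cells, held 4. The median over all 35116 windows was 3, and 92.7% of them held at least 1. The longer PU.1 core GAGGAA, searched on both strands, which contains the ETS core and lies in 23.6% of all windows, was in none of the windows of these 4 genes. Searched in the same way, the TATA box TATAAA (10.7% of all windows) was in none of them, and the GC box GGGCGG (42.6%) was in that of *LAPTM5* alone. The G and C content was 64.8% for *LAPTM5*, 43.6% for *ADGRE1*, 46% for the *FYB1* window shown and 55.6% for *F13A1*, against a median of 58% over all windows. The *F13A1* window and that of the first *FYB1* start are not shown because 106 and 179 of their bases lie in annotated exons.

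*CD4* (ENSG00000010610.9, plus strand of chromosome 12, 6786858 to 6820799 in GRCh38) had normalised read counts of 15.2, 18.3 and 17.9 in proliferating replicates 1, 2 and 3 and of 1432, 1039 and 1747 in dormant replicates 1, 2 and 3. The proliferating libraries were all low and close together, and every dormant library was far above them. Dormant libraries averaged 1406 ± 355 (SD, n = 3) against 17.1 ± 1.68 (SD, n = 3) for proliferating libraries, and so were 82.0-fold higher. The log2 ratio of dormant over proliferating within each pool of mice (normalised read count plus 1) was 6.46, 5.75 and 6.53, with a mean of 6.25 ± 0.43 (SD, n = 3), the smallest spread among the 6 genes. The estimated counts of *CD4* were not whole numbers in any of the 6 libraries, and multi-mapping reads had been included in the counting, whereas those of *F13A1*, *FYB1* and *ADGRE1* were whole in all 6. No annotated gene overlaps *CD4*.

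*F13A1* (ENSG00000124491.15, minus strand of chromosome 6, 6144084 to 6321013) had normalised read counts of 549, 1005 and 855 in proliferating replicates 1, 2 and 3 and of 3923, 1470 and 8529 in dormant replicates 1, 2 and 3. All dormant libraries were higher, but dormant replicate 2 came close to proliferating replicate 2, and the dormant libraries differed among themselves by 5.80-fold. Dormant libraries averaged 4641 ± 3584 (SD, n = 3) against 803 ± 233 (SD, n = 3) for proliferating libraries, or 5.78-fold higher. Within the pools of mice the log2 ratio was 2.84, 0.55 and 3.32, a mean of 2.23 ± 1.48 (SD, n = 3). The size of the difference leaned on dormant replicate 3: the log2 fold change fitted by edgeR was 2.53 with a standard error of 0.61, and 1.75 without that library.

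**Figure D1:**
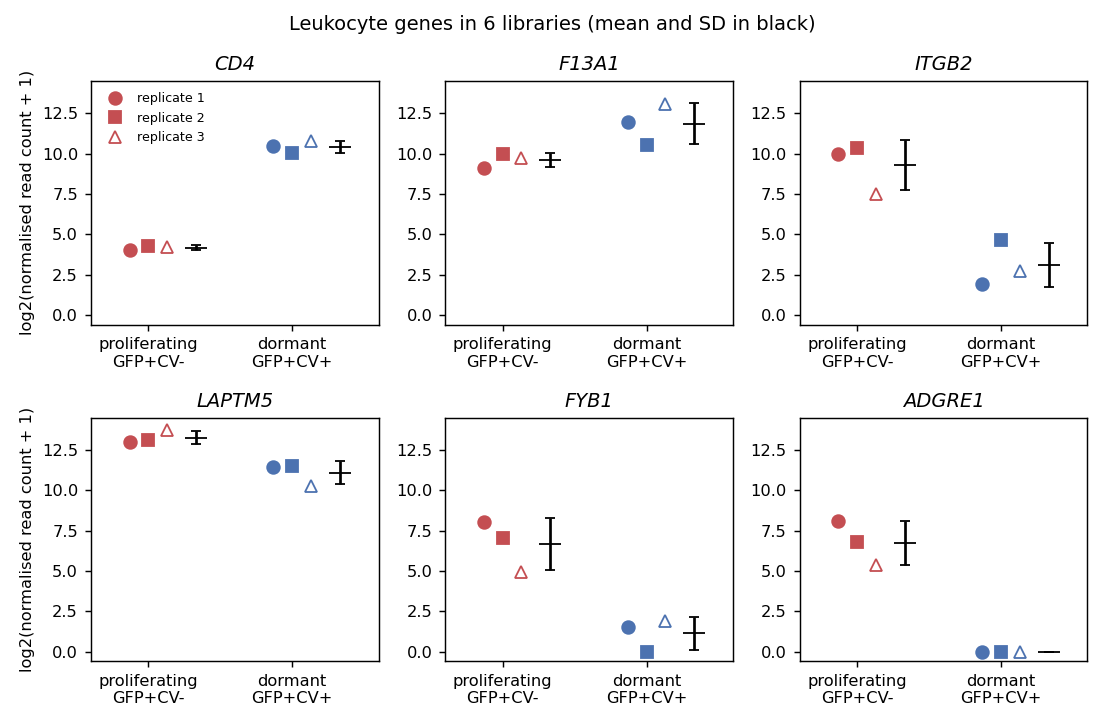
Each panel plots log2 of the normalised read count plus 1 for a gene in the 3 proliferating (red) and 3 dormant (blue) libraries, with circles, squares and open triangles for replicates 1, 2 and 3 and the mean and SD in black. *CD4* and *F13A1* sit higher and the other genes lower in dormant cells, and *ADGRE1* is at 0 in all 3 dormant libraries.

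*ITGB2* (ENSG00000160255.17, minus strand of chromosome 21, 44885953 to 44931989) had normalised read counts of 1026, 1281 and 184 in proliferating replicates 1, 2 and 3 and of 2.85, 24.0 and 5.53 in dormant replicates 1, 2 and 3. The lowest proliferating library, replicate 3, was still well above the highest dormant library, replicate 2. The mean was 830 ± 574 (SD, n = 3) in proliferating and 10.8 ± 11.5 (SD, n = 3) in dormant cells, 76.9-fold higher in proliferating cells. The log2 ratio within the pools was -8.06, -5.68 and -4.82, a mean of -6.19 ± 1.68 (SD, n = 3). The edgeR log2 fold change was -6.23 (standard error 1.17), and -7.63 without dormant replicate 2, where its estimated count was 24.92 against 3 and 4 in the other dormant libraries. *ITGB2* overlaps an antisense RNA, *ITGB2-AS1*, and another noncoding gene on its own strand, and counting by strand was not stated, so reads of these genes cannot be told apart. Annotated genes also overlap *F13A1* (2), *LAPTM5* (2), *FYB1* (1) and *ADGRE1* (3), and the same limit holds there.

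*LAPTM5* (ENSG00000162511.7, minus strand of chromosome 1, 30732469 to 30757774) had normalised read counts of 8039, 8797 and 13677 in proliferating replicates 1, 2 and 3 and of 2835, 2960 and 1250 in dormant replicates 1, 2 and 3. It was the only one of the 4 lower genes that stayed well detected in every dormant library. The mean was 10171 ± 3060 (SD, n = 3) in proliferating and 2348 ± 953 (SD, n = 3) in dormant cells, 4.33-fold higher in proliferating cells. Within the pools the log2 ratio was -1.50, -1.57 and -3.45, a mean of -2.18 ± 1.11 (SD, n = 3), with replicate 3 apart because its proliferating library was the highest and its dormant library the lowest. The edgeR log2 fold change was -2.11 with a standard error of 0.37.

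*FYB1* (ENSG00000082074.16, minus strand of chromosome 5, 39105252 to 39274528) had normalised read counts of 261, 132 and 29.3 in proliferating replicates 1, 2 and 3 and of 1.90, 0 and 2.76 in dormant replicates 1, 2 and 3. Proliferating replicate 3 was the lowest of its population by far, yet the populations did not overlap. The dormant libraries held 4 counts in all against 518 in the proliferating libraries, which after division by the summed size factors of each population was a ratio of 103. Its 95% counting interval (exact, Clopper-Pearson) was 40.0 to 380. That interval pools the libraries, so it leaves out the spread between pools of mice. The log2 ratio within the pools was -6.50, -7.05 and -3.01, a mean of -5.52 ± 2.19 (SD, n = 3), the widest spread of the 6 genes. The edgeR log2 fold change was -6.47 (standard error 1.32), -5.65 without proliferating replicate 1 and -5.87 without dormant replicate 2.

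*ADGRE1* (ENSG00000174837.14, plus strand of chromosome 19, 6887566 to 6940459) had normalised read counts of 268, 112 and 39.8 in proliferating replicates 1, 2 and 3 and 0 in every dormant library. A count of 0 allows up to 3 counts, or normalised read counts of 2.85, 2.88 and 4.14 in dormant replicates 1, 2 and 3. Against this limit, taken per library, the mean of 140 ± 117 (SD, n = 3) in proliferating cells was at least 42.5-fold higher, and the log2 bound of -5.41 became -4.53 without proliferating replicate 1. Of the listed genes, 70 (6.03%) were at a rounded count of 0 in all 3 dormant libraries and 3 (0.258%) in all 3 proliferating libraries. Counting intervals and limits cover counting error only, and between 64.2% and 87.9% of the whole counts of 1 to 50 in a library were even, so counts in the table may not be separate molecules.

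For all 6 genes the 3 libraries of one population lay wholly on one side of the other 3, which held for 99.2% of the listed genes (49% higher and 50.2% lower in dormant cells). The table holds genes that the authors had called, so this count says nothing particular about the 6 genes. By size, the means of *CD4*, *F13A1*, *ITGB2*, *LAPTM5* and *FYB1* differed by at least 4-fold and *ADGRE1* was at 0 in dormant cells, where 36.8% of the listed genes differed by 4-fold or more (18.3% higher and 18.5% lower in dormant cells). The median log2 fold change over all listed genes was -0.33, and it shifted by -0.58 when library sizes were set by the median ratio across listed genes. The median ratio takes most genes as unchanged, whereas the listed genes had all been called as changed, so its factors may be off. Relative to the median of the listed genes under each scaling, *LAPTM5* had a log2 fold change of -1.79 under the authors' size factors and -1.75 after rescaling, and *F13A1* had 2.86 and 2.77. All 6 genes kept their direction and did not overlap between populations under the authors' size factors, the median ratio and trimmed mean of M-values (TMM). Under the median ratio that held for 84.8% of the listed genes (34.5% higher and 50.4% lower in dormant cells), and under TMM for 99.2%.

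**Figure D2:**
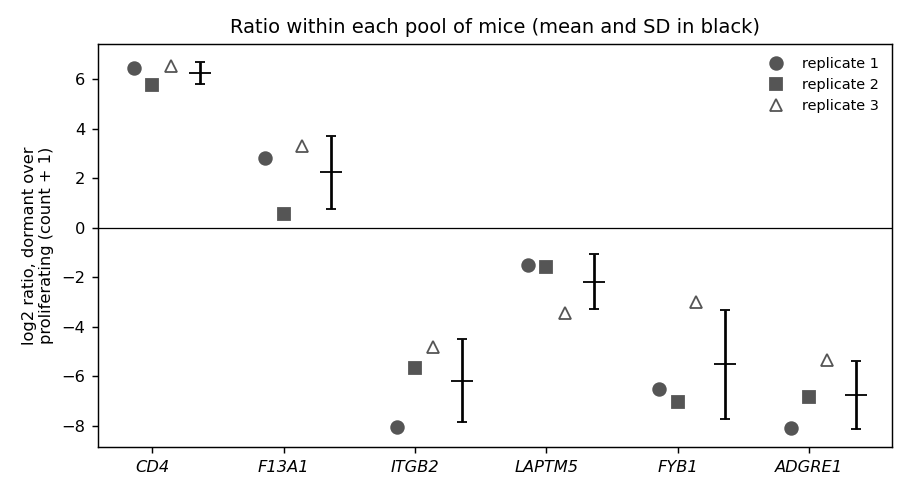
The vertical axis gives the log2 ratio of dormant over proliferating normalised read counts plus 1 within each pool of mice, with 1 symbol per replicate and the mean and SD in black. *CD4* ratios lie between 5.75 and 6.53, those of *F13A1* between 0.55 and 3.32, and the ratios of the other 4 genes are all below 0.

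The 4 lower genes did not share a pattern over the replicates. In proliferating cells, replicate 3 was the lowest library for *ITGB2*, *FYB1* and *ADGRE1*, with highest over lowest ratios of 6.97, 8.92 and 6.73, and it was the highest library for *LAPTM5*. Replicate 3 was the lowest proliferating library for 34.1% of the listed genes and for 47% of the 215 genes at least 4-fold lower in dormant cells, and it was at most 25% of both other libraries for 22 listed genes. Over the 6 libraries the patterns of *FYB1* and *ADGRE1* differed by a root mean square of 0.87 on the log2 scale, each gene centred on its own mean, and those of *ITGB2* and *ADGRE1* by 0.98. *LAPTM5* was 2.23 to 2.53 away from these 3 genes. In dormant cells replicate 3 was the highest library for *CD4* and *F13A1* and the lowest for *LAPTM5*, and it was the highest dormant library for 44% of the listed genes and for 73.6% of the 212 genes at least 4-fold higher in dormant cells.

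Levels were compared between genes as normalised read counts per kilobase of exon, the length being the union of all annotated exons of a gene. In proliferating cells *LAPTM5* stood highest, with 3151 ± 948 (SD, n = 3), and its lowest library was above every library of the other genes. *F13A1* followed with 176 ± 51.1 (SD, n = 3), and *ITGB2* with 114 ± 78.7 (SD, n = 3) overlapped it. *ADGRE1* with 37.8 ± 31.5 (SD, n = 3) overlapped *ITGB2*, *FYB1* with 15.9 ± 13.2 (SD, n = 3) overlapped *ADGRE1*, and *CD4* was lowest by mean with 3.76 ± 0.37 (SD, n = 3), a level that proliferating replicate 3 of *FYB1* (3.32) went below. In dormant cells *LAPTM5* no longer stood apart. *F13A1* had 1019 ± 787 (SD, n = 3) and overlapped *LAPTM5* with 728 ± 295 (SD, n = 3), and *CD4* reached 309 ± 77.9 (SD, n = 3), while *ITGB2*, *FYB1* and *ADGRE1* were at 1.48 ± 1.58 (SD, n = 3), 0.176 ± 0.160 (SD, n = 3) and 0. Among 1157 listed genes with a length, *CD4* ranked from 1102 to 1115 in the proliferating and from 667 to 727 in the dormant libraries, where rank 1 is the highest level.

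**Figure D3:**
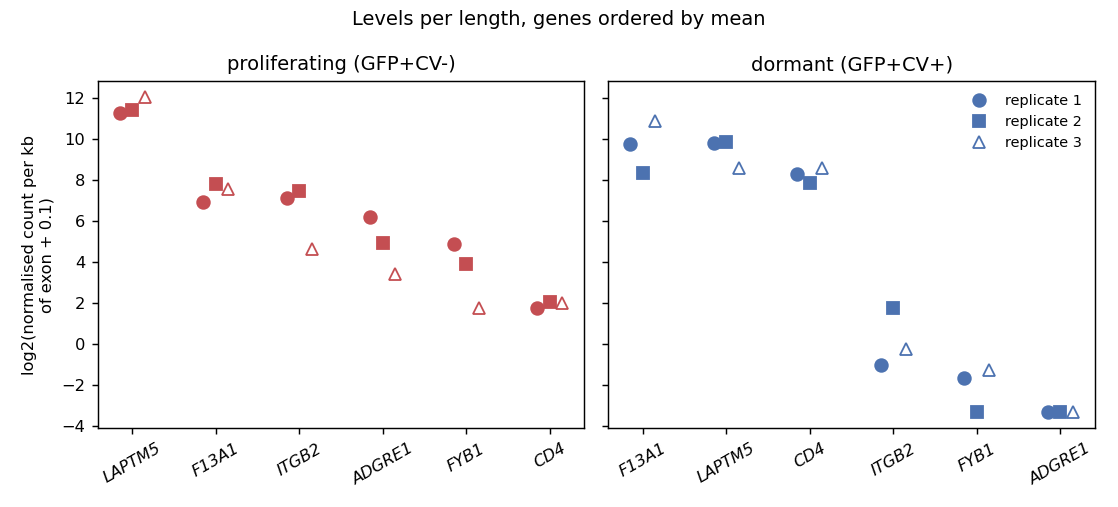
Log2 of the normalised read count per kilobase of exon plus 0.1 is plotted for each gene in the proliferating (left) and dormant (right) libraries, ordered by the mean, with 1 symbol per replicate. *LAPTM5* leads in proliferating cells, and *F13A1*, *LAPTM5* and *CD4* stand well above the other 3 genes in dormant cells.

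Ratios between genes within 1 library do not depend on how libraries are scaled. Per kilobase, *LAPTM5* was 746, 678 and 1080 times *CD4* in proliferating replicates 1, 2 and 3 and 2.80, 4.02 and 1.01 times *CD4* in dormant replicates 1, 2 and 3. *F13A1* was 36.1, 54.9 and 47.9 times *CD4* in proliferating and 2.74, 1.42 and 4.88 times in dormant replicates 1, 2 and 3, so it was above *CD4* in all 6 libraries. *LAPTM5* was 20.7, 12.35 and 22.6 times *F13A1* in proliferating replicates 1, 2 and 3 and 1.02, 2.84 and 0.207 times *F13A1* in dormant replicates 1, 2 and 3. The higher dormant mean of *F13A1* thus rested on replicate 3, and *LAPTM5* was level with it or above it in the other dormant libraries. *LAPTM5* was 17.7, 15.5 and 168 times *ITGB2* in proliferating replicates 1, 2 and 3 and 279 to 2248 times in dormant cells. Proliferating replicate 3 thus stood apart from the other proliferating libraries in the balance of *LAPTM5* to *ITGB2*. *FYB1* per kilobase was 0.409, 0.493 and 0.309 of *ADGRE1* in the 3 proliferating libraries, so per kilobase *ADGRE1* was the higher of these in each. Without division by length *FYB1* was 0.973, 1.17 and 0.735 of *ADGRE1* in proliferating replicates 1, 2 and 3. The order of these genes thus depends on the exon length used.

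Other genes of the same pathways were few in the table. Genes on the lists that were not in the table were not analysed here, and the share of listed genes called by edgeR's quasi-likelihood test at a Benjamini-Hochberg adjusted p under 0.05, adjusted over the 1161 listed genes, was 99.7% (49.6% higher and 50% lower in dormant cells). Rescaled by the median ratio, the split was 346 higher and 585 lower, against 576 higher and 581 lower. Against that background a call in a list carries no information of its own. The alpha chains that pair with *ITGB2* were not analysed here. Of 24 signalling partners of *CD4* and *FYB1*, *ENAH*, an actin regulator of the Ena/VASP family, was listed and rose by a log2 fold change of 2.11. Of 15 genes of the fibrin clot and its factor XIII, *PLAU* (urokinase) was listed and fell by 0.68 on the log2 scale. Of 8 relatives and partners of *LAPTM5*, *LAMP1*, a lysosomal membrane protein, was listed and had a log2 fold change of 1.02, with an edgeR adjusted p of 0.0293 that became 0.305 after rescaling by the median ratio, where the log2 fold change was 0.44. None of 8 adhesion G protein-coupled receptors related to *ADGRE1* and none of 7 platelet and megakaryocyte markers were in the table.

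MHC class II, which *CD4* binds, moved the other way from *CD4*. Of 11 genes for MHC class II and its chaperone *CD74*, 4 were in the table and all 4 fell in dormant cells, with log2 fold changes from -3.28 for *HLA-DPB1* to -0.96 for *CD74* and a median of -1.83, against -0.33 over all listed genes. *HLA-DRB1* and *HLA-DRB5* are near-identical, so their reads may be shared. The normalised read count of *HLA-DPB1* was 832, 878 and 680 in proliferating replicates 1, 2 and 3 and 98.9, 137 and 8.29 in dormant replicates 1, 2 and 3, so that it was lowest in dormant replicate 3, as *LAPTM5* was. The leukocyte markers *ARHGDIB* (an inhibitor of GDP release from small GTPases) and *RAC2* (a small GTPase of haematopoietic cells) fell by 1.57 and 1.03 on the log2 scale. In proliferating replicates 1, 2 and 3 *ARHGDIB* had normalised read counts of 15604, 15508 and 28164 and *RAC2* of 9490, 8216 and 8689. In dormant replicates 1, 2 and 3 *ARHGDIB* had 5542, 7284 and 7182 and *RAC2* had 4367, 4927 and 3589. Both genes were thus at high counts in every library, and which cells expressed them was not tested.

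Genes on the lists for single leukocyte types went in both directions, and such a gene need not be expressed by that cell type alone. Of 21 genes on the microglia and macrophage list, only *APOE* was in the table. It rose from normalised read counts of 2.90, 0 and 0 in proliferating replicates 1, 2 and 3 to 466, 774 and 254 in dormant replicates 1, 2 and 3. Of 14 T and natural killer cell markers, *PRF1* (perforin) was listed and rose by a log2 fold change of 1.91, and of 9 B cell markers *BANK1*, a B cell scaffold protein, was listed and fell to a rounded count of 0 in all dormant libraries, at least 133-fold, where its estimated count in dormant replicate 2 was 0.25. Of 16 granulocyte and mast cell markers, the tryptases *TPSAB1*, *TPSB2* and *TPSD1* rose and *LTC4S* (leukotriene C4 synthase) fell. Their summed normalised read counts of 30.9 to 94.2 in proliferating and 109 to 1163 in dormant cells pool opposite directions. *LTC4S* alone had 94.2, 77.6 and 17.9 in proliferating replicates 1, 2 and 3 and 0 in every dormant library, so the dormant sum was tryptases only. *TPSB2* had 0, 0 and 8.13 in proliferating and 115, 56.6 and 681 in dormant replicates 1, 2 and 3. The tryptases are close paralogs and may share reads. Of the lists for other cells, fibroblast and astrocyte markers were higher in dormant cells. The 6 of 8 fibroblast markers in the table (*BGN*, *DCN*, *LUM*, *COL1A1*, *COL3A1* and *PDGFRB*) all rose and summed to 4573 to 7769 in proliferating and 48570 to 78930 in dormant cells. For *BGN*, the paper reports its protein, biglycan, in rare GFP+ cells in the brain. The 2 of 7 astrocyte markers in the table (*SLC1A3* and *SPARCL1*) rose likewise, from 577 to 1339 in proliferating to 3518 to 6961 in dormant cells, while none of 7 endothelial markers were in the table. Brain genes did not all go this way. Outside the lists, and chosen after their values were seen, *BCAN* (brevican, a proteoglycan of brain matrix) and *SNAP91* (a clathrin coat protein of synapses) fell, with edgeR log2 fold changes of -6.60 and -7.15. Of 10 proliferation markers, *MCM3* and *TYMS* were listed and fell, with log2 fold changes of -0.40 and -0.67. The part of these cell types in the values of the 6 genes was not tested, and since these are bulk libraries a change in the number of expressing cells and a change in RNA per cell cannot be told apart.

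**Figure D4:**
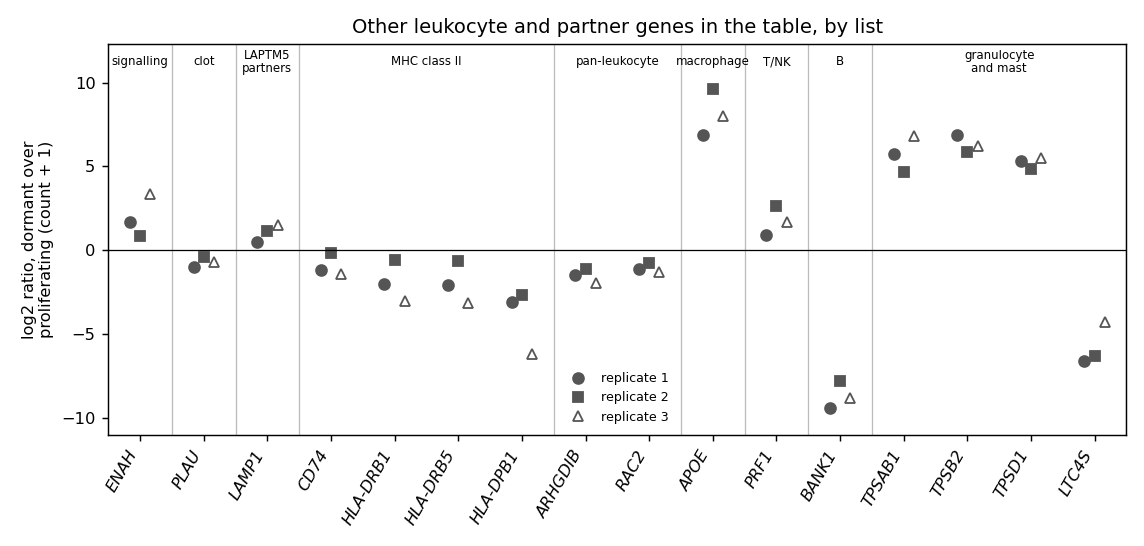
Log2 ratios of dormant over proliferating normalised read counts plus 1 within each pool are plotted for the other leukocyte and partner genes in the table, grouped by list, with 1 symbol per replicate. The MHC class II genes, *ARHGDIB*, *RAC2*, *BANK1* and *LTC4S* lie below 0, and *APOE*, *PRF1* and the 3 tryptases lie above it.

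Genes with the most similar pattern over the 6 libraries were found by the root mean square difference of log2 of the normalised read count plus 1, each gene centred on its own mean. The closest to *ADGRE1* were *RDH16* and *LINC00626*, both at 0.29, against a median of 3.31 over the listed genes, followed by *SMC2-AS1* at 0.42, and all 3 were at 0 in every dormant library. The closest to *ITGB2* were *FGFBP1* at 0.36, *TNIP3* at 0.49 and *AC009318.1* at 0.61, all also lowest in replicate 3 among the proliferating libraries. Near *FYB1* were *AC012512.1* at 0.60, *MYO16* at 0.64 and *LTC4S* at 0.64. *LAPTM5* was closest to *ADIRF-AS1* at 0.27, *AL136982.7* at 0.27 and *ADIRF* at 0.28. By its name *ADIRF-AS1* is antisense to *ADIRF*, and their normalised read counts were close in every library. They were 7680 and 7224 in proliferating replicate 1 and 1499 and 1496 in dormant replicate 3, so reads may be shared and these genes may not be separate neighbours. The nearest to *F13A1* were *CU638689.5* at 0.29, *AC010834.3* at 0.31 and *AC026401.3* at 0.31, and the nearest to *CD4* were *AC018752.1* at 0.39, *AC011287.1* at 0.59 and *AL021026.1* at 0.61.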

How the data were processed

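Messenger RNA was sequenced in 6 libraries made with Smart-seq2 from sorted cells, 3 per population. After trimming with Cutadapt, the authors used STAR 2.7 and a reference that combined human (GRCh38.p12) with mouse (GRCm38.p6). Reads on mouse sequence were dropped, and Rsubread counted the rest, multi-mapping reads among them. Estimated counts, as deposited, are partly fractional (43.2% to 49.6% of values per library). The normalised read counts are a signal that the authors made by dividing rounded counts by a DESeq2 size factor, and recomputing them differed by at most 5e-05. Genes that the authors did not call are not in it. Its columns of means, fold changes, standard errors, test statistics and p-values were not used.

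Estimated counts were rounded and fitted with edgeR 4.0.16 (quasi-likelihood, R 4.3.3) over all 1161 genes, with the authors' size factors and population as the only term. P-values were two-sided, Benjamini-Hochberg adjusted across listed genes, and used only for list genes and for the background. The dispersion comes from genes selected for a difference. Same-numbered libraries came from the same pool of mice, and their deviations from the population means had correlations of 0.057, -0.018 and 0.001 across genes. TMM, the median ratio, DESeq2 1.42.0, other pseudocounts, a mean count minimum of 10 and leaving out each library were alternatives. TMM and the median ratio were set over the listed genes alone and take most genes as unchanged, which does not hold for called genes. The fit was tested on simulated data. The named genes are the 6 genes, every gene of the fixed lists in the table, and for each of the 6 the 3 genes closest in pattern. The 6 genes and the lists were chosen with earlier results of these data known. Coordinates and exon lengths are from GENCODE release 44 on GRCh38, and start windows from RefSeq. Some listed genes are not reported here.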

Additional observations from a re-analysis of the deposited data

How the results depend on the processing

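Each of the 6 genes kept its direction under every alternative that gave it a value. The genes were chosen for their direction and their populations did not overlap. Leaving out a library or changing the pseudocount therefore could not reverse it. With the replicate number as a block, the edgeR log2 fold changes were 6.33 for *CD4*, 2.28 for *F13A1*, -6.31 for *ITGB2*, -2.15 for *LAPTM5* and -6.24 for *FYB1*, and the block gave 544 genes called higher and 553 called lower. It took the call from *LAMP1* and from no other list gene. *ADGRE1*, at 0 in all dormant libraries, was given as a bound only and has no value with the block, DESeq2 or the pseudocounts. Rescaling by the median ratio over the listed genes moved *CD4* to 5.74 and the number of listed genes called higher from 576 to 346, since it shifted the median of all listed genes. A pseudocount of 5 moved *FYB1* to -4.06 on the log2 scale. When single libraries were left out, log2 fold changes ran from 6.16 to 6.53 for *CD4*, from 1.75 to 2.96 for *F13A1*, from -7.63 to -5.77 for *ITGB2*, from -2.31 to -1.81 for *LAPTM5*, from -7.05 to -5.65 for *FYB1* and from -5.85 to -4.53 for the bound of *ADGRE1*. *LAMP1* lost its call without any 1 of 5 libraries, and *TYMS* without proliferating replicate 1. Of the results under an alternative, 93 stayed within the spread between replicates or 1.5 times the count. The depth of the libraries is not given by the table, so counts near 0 show only that a gene was not detectable at this depth and cell input. Estimated counts were 0 for 115, 119 and 127 listed genes in dormant replicates 1, 2 and 3. In proliferating replicates 1, 2 and 3 they were 0 for 15, 25 and 8 listed genes. The paper reports that dye-retaining cells were a small share of the GFP+ cells isolated. The part of low cell input in these zeros was not tested.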
